A study of Arabidopsis thaliana with 8 samples.

Results

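Camalexin is the indole antimicrobial compound (phytoalexin) that Arabidopsis makes under attack by fungi and bacteria. The set described here is 6 genes chosen by locus from the enzymes that make it or branch off from its route: PAD3 (AT3G26830), CYP71A12 (AT2G30750), CYP71A13 (AT2G30770), GGP1 (AT4G30530), GSTF6 (AT1G02930) and CYP82C2 (AT4G31970). All probes assigned to these loci were taken, 9 in number: 1 each for PAD3, CYP71A12 and CYP82C2, and 2 each for CYP71A13, GGP1 and GSTF6. Each of the 6 genes was well above background on all 8 arrays, so all 6 passed the filter on dim probes, out of 22102 genes tested.

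In this route, tryptophan is turned into indole-3-acetaldoxime by CYP79B2 and CYP79B3, and the aldoxime is dehydrated to indole-3-acetonitrile by CYP71A13 and its close copy CYP71A12. Glutathione is then joined to the activated nitrile, the conjugate is trimmed by gamma-glutamyl peptidases such as GGP1, and PAD3 closes the ring in the last steps. A side branch leads from the same aldoxime through indole-3-carbonyl nitrile, made by FOX1, to a hydroxylated product made by CYP82C2. The transcription factor WRKY33 and mitogen-activated protein kinases are known to switch the route on during infection, while in unchallenged seedlings it is usually weakly used.

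RNA came from seedlings of the Col-0 ecotype and was hybridised to 8 single-colour Agilent arrays. The first group, 4 arrays, held the dominant bil1-1D mutant (also called bzr1-1D), a gain-of-function allele of the brassinosteroid-responsive transcription factor BZR1, treated for 3 hours with brassinolide, an active brassinosteroid, at 1 µM. The second group, 4 arrays, held wild type given the solvent DMSO for 3 hours. Both groups had been kept for 14 days with 1 µM brassinazole, which blocks the plant's own brassinosteroid synthesis, on agar plates kept at 22 °C under 16-hour days. The question was which genes respond to brassinosteroid, and the design changes genotype and hormone together, so their parts cannot be told apart. The mutant arrays lay on 1 slide and the wild-type arrays on another, each scanned separately, and slide cannot be told apart from group either. Nothing says whether replicates came from separate cultures, so p-values measure only the spread between these samples. Whole seedlings were used, in which fewer cells of a type and less RNA per cell cannot be told apart.

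The array's 75th percentile of processed signal was 3033 to 3821 units in the mutant and 4638 to 6153 units in wild type, and 74.5% to 75.8% of mutant spots against 79.5% to 80.6% of wild-type spots were well above background. The scanner software marked 3 arrays for evaluation: mutant replicate 4 and wild-type replicates 1 and 2. Levels below are log2 of the signal over the array's 75th percentile, so 0 is a gene at that percentile. A change is the mutant's mean minus the wild-type mean, and a gene counts as changed where limma's adjusted p was under 0.05. All 8 root and all 8 leaf marker genes were well above background on every array. The summed linear signal of the root markers was 37.8 to 43.6 in the mutant and 39.5 to 49.7 in wild type, in units of the 75th percentile, with 1 marker higher, 2 lower and 5 not passing the test. That of the leaf markers was 184 to 200 in the mutant and 184 to 219 in wild type, with 2 higher, 4 lower and 2 not passing. Of the leaf markers 6 passed, against 3 without replicate 4 of either group and 1 with spike-in scaling. Each marker was judged on its brightest probe, and other probes could differ. For CA1 and MYB60, the leaf markers not passing, other CA1 probes changed by -2.72 to -0.27 and the other MYB60 probe by 0.46. Each of these passed (limma over probes, adjusted p of 0.0313 or less). Probes of the root marker PYK10 gave -1.38 to -0.43, and those of the leaf marker RBCS1A -0.23 to 0.36. Both summed signals overlapped between the groups, but that of the root markers only through wild-type replicate 1 (39.5). The other wild-type arrays were at 47.6 to 49.7, above the mutant maximum of 43.6. PYK10 and PHT1;1 were the brightest root markers (mean log2 level 4.70 and 3.44 in the mutant), so the root sum mostly follows them. The part of these signals in the results was not tested.

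Of the 6 genes, 3 were lower in the mutant with brassinolide: PAD3, CYP71A13 and GGP1. None was higher. PAD3 and CYP71A13 fell by more than 2-fold, and GGP1 by less. CYP71A12, GSTF6 and CYP82C2 did not pass the test. Over all genes, 55.9% passed, with 30.2% higher and 25.7% lower, and 5.02% passed with a fall of at least 2-fold. The 3 of 6 that passed are near the share of all genes that did so, while 2 of 6 with a fall of at least 2-fold stand beside a background of 5.02%. The 6 genes were chosen with earlier results of these data known, so these shares are a description only. Over all genes 6675 were higher and 5670 lower, a split that became 1504 higher and 2703 lower when arrays were scaled on spike-in probes. The median change was -0.11 for the 6 genes and 0.03 for all genes tested. In 3 of the 6 genes the groups did not overlap, against 52.2% of all genes.

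PAD3, the P450 CYP71B15 of the last steps, showed the largest change. It was read by 1 probe only, so no second probe could be compared. Its log2 level was 0.72, 1.36, 1.34 and 0.74 in the mutant and 3.59, 3.07, 2.78 and 3.63 in wild type. Every mutant array was below every wild-type array, and the closest 2 arrays lay more than 1 log2 unit apart. The processed signal behind these levels was 5775 to 8860 units in the mutant and 31950.1 to 74096 units in wild type. PAD3 averaged 1.04 ± 0.36 in the mutant and 3.27 ± 0.41 in wild type (SD, n = 4 each), a log2 change of -2.23 ± 0.24 (SE; limma, adjusted p = 0.000156). This is 4.69-fold lower, with a 95% interval that puts the mutant at 0.146 to 0.312 of the wild-type level. Of all genes tested, 184, or 0.833%, had a deeper fall.

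CYP71A13, the main aldoxime dehydratase of the route in leaves, was also lower. Its log2 level was -2.51, -2.0, -2.58 and -2.95 in the mutant, against 0.45, -1.94, -1.13 and -0.26 in wild type. The groups did not overlap, but only just: mutant replicate 2 and wild-type replicate 2 were nearly level. CYP71A13 averaged -2.51 ± 0.39 in the mutant and -0.72 ± 1.04 in wild type (SD, n = 4 each), a change of -1.79 ± 0.48 (SE; limma, adjusted p = 0.0137). It was 3.46-fold lower, with the mutant at 0.134 to 0.624 of wild type as the 95% interval, and 339 genes (1.53%) fell further. The wild-type replicates spread widely: their SD exceeded that of 99.7% of the 20968 genes detected well above background on every array, which had a median wild-type SD of 0.112. A further probe of CYP71A13 gave -2.0 ± 0.47 (limma over probes, adjusted p = 0.00706) and followed the same array pattern.

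CYP71A12 is the neighbouring copy on chromosome 2, with 2 other genes listed between the pair in the RefSeq table, the nearer of which overlaps CYP71A13 there. It acts beside CYP71A13 in camalexin synthesis and feeds the carbonyl nitrile branch. Its log2 level was -1.44, -0.84, -1.03 and -0.54 in the mutant, against -0.63, -1.57, -1.52 and -0.65 in wild type. The ranges overlapped over most of their length. CYP71A12 averaged -0.96 ± 0.38 in the mutant and -1.09 ± 0.52 in wild type (SD, n = 4 each). The change was 0.13 ± 0.28 (SE; limma, adjusted p = 0.71), with the mutant at 0.7 to 1.71 of wild type as the 95% interval. Its sign turned when mutant replicate 4 (-0.01), wild-type replicate 2 (-0.03) or wild-type replicate 3 (-0.01) was left out. CYP71A12 and CYP71A13 are close in sequence, and how far each probe reads the other gene was not tested.

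**Figure D1:**
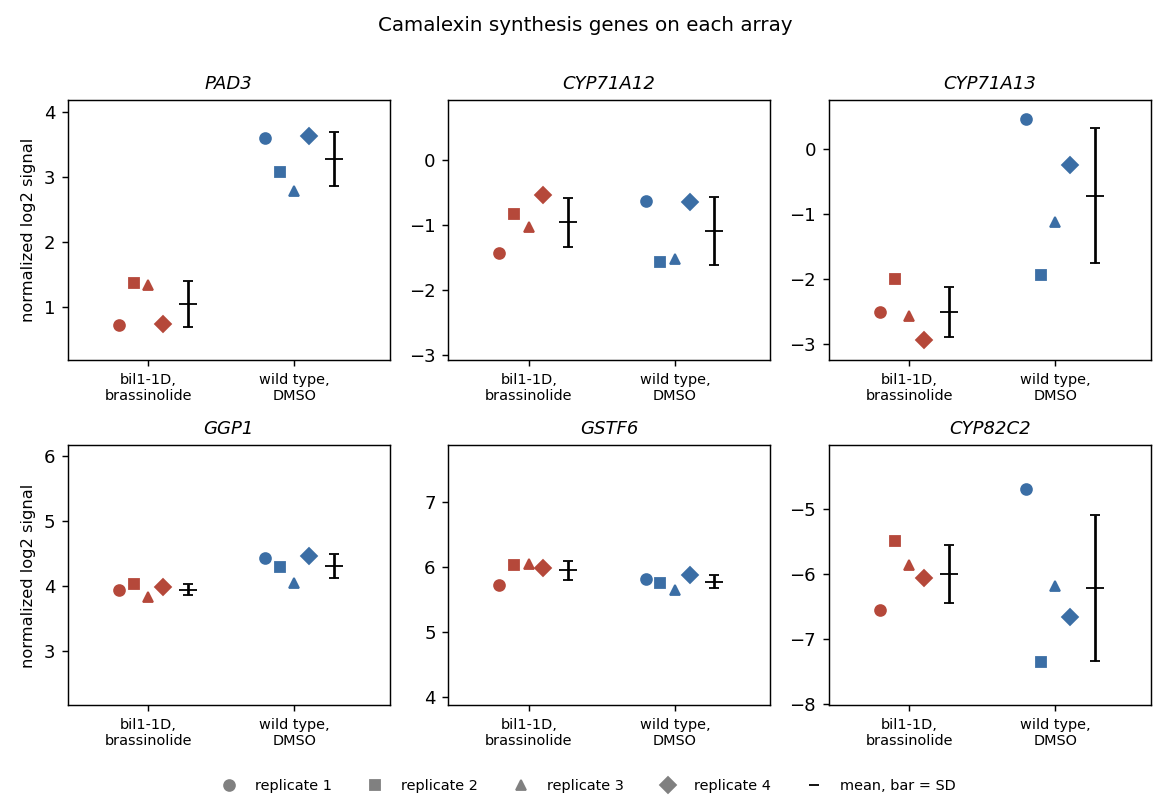
Normalized log2 signal (log2 of signal over the array's 75th percentile, vertical axis, 4 units high in every panel) of the 6 genes, with the 4 arrays of bil1-1D given brassinolide at the left of each panel and the 4 of wild type given DMSO at the right; symbols mark the replicate number and the bars are mean and SD. PAD3, CYP71A13 and GGP1 do not overlap between groups, while CYP71A13 and CYP82C2 spread over more than 2 log2 units among wild-type arrays.

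GSTF6 is a phi-class glutathione S-transferase, a class that joins glutathione to small molecules, and has been implicated in making the glutathione conjugate for camalexin. Its log2 level was 5.73, 6.03, 6.05 and 5.99 in the mutant, against 5.81, 5.75, 5.65 and 5.88 in wild type. Mutant replicate 1 lay within the wild-type range and the other 3 mutant arrays above it. GSTF6 averaged 5.95 ± 0.15 in the mutant and 5.77 ± 0.10 in wild type (SD, n = 4 each), a change of 0.18 ± 0.08 (SE; limma, adjusted p = 0.108). The 95% interval puts the mutant at 0.987 to 1.29 of wild type. Without mutant replicate 1 the change was 0.25 and passed the test (limma, adjusted p = 0.0168). A second probe of GSTF6 gave -0.02 ± 0.11 (limma over probes, adjusted p = 0.897), so the 2 probes did not give the same sign.

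GGP1, the gamma-glutamyl peptidase that trims the conjugate in camalexin and in glucosinolate synthesis, was modestly lower. Its log2 level was 3.95, 4.03, 3.84 and 3.99 in the mutant, against 4.43, 4.30, 4.05 and 4.46 in wild type. All mutant arrays were below all wild-type arrays, although wild-type replicate 3 was nearly level with mutant replicate 2. GGP1 averaged 3.95 ± 0.08 in the mutant and 4.31 ± 0.19 in wild type (SD, n = 4 each), a change of -0.36 ± 0.09 (SE; limma, adjusted p = 0.0128), or 1.28-fold lower. The second probe gave -0.38 ± 0.09 (limma over probes, adjusted p = 0.00607). The call was lost with quantile normalization (-0.24, adjusted p = 0.105), spike-in scaling (-0.45, adjusted p = 0.189), the authors' value table (-0.28, adjusted p = 0.106) and without the arrays marked for evaluation (-0.32, adjusted p = 0.136), with limma in each.

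CYP82C2, the hydroxylase at the end of the carbonyl nitrile branch, was dim. Its processed signal was 40.4 to 76.8 units in the mutant and 31.9 to 237 units in wild type. Its log2 level was -6.56, -5.49, -5.87 and -6.07 in the mutant, against -4.70, -7.35, -6.19 and -6.66 in wild type. The mutant values all lay inside the wild-type range, which was set by wild-type replicates 1 and 2. CYP82C2 averaged -6.00 ± 0.45 in the mutant and -6.22 ± 1.12 in wild type (SD, n = 4 each), a change of 0.22 ± 0.52 (SE; limma, adjusted p = 0.735). The 95% interval, from 0.506 to 2.69 of the wild-type level, allows a change in either direction, and the sign turned without wild-type replicate 2 (-0.15) and with normexp background correction with an offset (-1.04). The wild-type SD exceeded that of 99.8% of the genes well above background on all arrays.

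**Figure D2:**
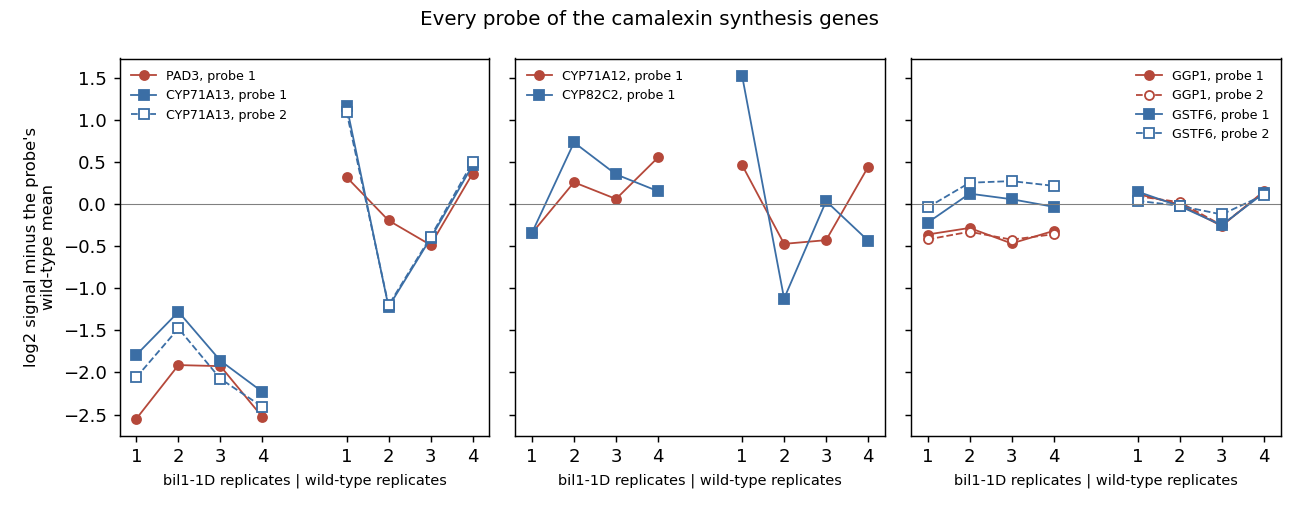
Log2 signal of each of the 9 probes minus that probe's own wild-type mean (vertical axis), with the 4 mutant arrays at the left and the 4 wild-type arrays at the right of each panel; dashed lines with open symbols are second probes. Both CYP71A13 probes trace the same path, the 2 GSTF6 probes part in the mutant arrays, and wild-type replicates 1 and 4 are the higher ones in 5 of the 6 genes.

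The wild-type arrays had a shared order. Replicates 1 and 4 were both above replicates 2 and 3 in 5 of the 6 genes (83.3%), the exception being CYP82C2, against 2983 of 20968 genes well above background on all arrays (14.2%). This order was noticed in these data and is a description only. In the mutant, PAD3 was higher in replicates 2 and 3 than in replicates 1 and 4.

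The changes of the 6 genes were set against each other within arrays, over 15 pairs. For 8 pairs the exact two-sided permutation test gave p = 0.0286, the smallest that 4 against 4 arrays allow. It became 0.0536 after adjustment over the 15 pairs, so 0 pairs passed the threshold. No pair could pass unless more than 8 pairs reached the smallest p together, so this count cannot show that the changes were equal. The change of PAD3 was 2.36 log2 units below that of CYP71A12, and the change of CYP71A12 was 1.92 above that of CYP71A13. The within-array difference of CYP71A12 over CYP71A13 was 1.07 to 2.41 in the mutant and -1.08 to 0.38 in wild type, without overlap. PAD3 and CYP71A13 differed in their changes by -0.44 (exact permutation test, p = 0.429, adjusted p = 0.536); the PAD3 over CYP71A13 difference was 3.24 to 3.93 in the mutant and 3.14 to 5.02 in wild type. GGP1 and GSTF6 differed by -0.53, with differences of -2.20 to -1.78 in the mutant and -1.60 to -1.38 in wild type.

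Upstream of the 6 genes, the tryptophan synthesis genes were mostly lower. Of 10 measured, 8 fell, 1 rose and 1 did not pass the test, with a median change of -0.75 beside 0.03 for all genes. Among all genes, 25.7% were lower and 30.2% higher. The falls numbered 6 with spike-in scaling and without the arrays marked for evaluation, and 7 or 8 in the other alternatives. With either normexp form, with array weights or without mutant replicate 1, 2 rose. The largest fall was that of TSA1, a tryptophan synthase alpha subunit, which averaged 3.29 ± 0.08 in the mutant and 4.23 ± 0.15 in wild type (SD, n = 4 each), a change of -0.94 ± 0.08 (SE; limma, adjusted p = 6.24e-05). The rise was that of ASA2, an anthranilate synthase alpha subunit, by 0.33 ± 0.07 (SE; limma, adjusted p = 0.00532), and it did not pass with spike-in scaling (0.24, adjusted p = 0.512). Of the 2 enzymes that make the aldoxime, CYP79B2 was lower, at 3.73 ± 0.17 in the mutant and 4.25 ± 0.25 in wild type (SD, n = 4 each). Its change was -0.52 ± 0.14 (SE; limma, adjusted p = 0.0126), and 3 alternatives ended the call, with adjusted p of 0.0581 to 0.0665. CYP79B3 changed by -0.14 ± 0.16 (SE; limma, adjusted p = 0.468).

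Glutathione genes fell in 4 of 5 measured cases, with 1 not passing and a median change of -0.44, beside 25.7% lower among all genes. GGT2, a gamma-glutamyl transpeptidase, was well above background on 0 mutant arrays. Its level was lower by at least 1.2-fold, a bound that was not itself tested. Measured means were -9.42 ± 0.11 in the mutant and -7.23 ± 1.24 in wild type (SD, n = 4 each). Their difference, set in part by background, passed (limma, adjusted p = 0.00924) and counts among the falls, but both forms of normexp ended the call. Wild-type levels of GGT2 were -7.55, -5.42, -8.23 and -7.70. The lowest level well above background on mutant arrays was -7.62 to -7.44, so the bound rests on wild-type replicate 2. GSH1, which makes the glutathione precursor gamma-glutamylcysteine, was chosen after its values were seen: it averaged 2.78 ± 0.06 in the mutant and 3.89 ± 0.08 in wild type (SD, n = 4 each), a change of -1.11 ± 0.06 (SE; limma, adjusted p = 5.56e-06). The list's count of falls was 1 to 2 with spike-in scaling, with either normexp form and without the arrays marked for evaluation.

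**Figure D3:**
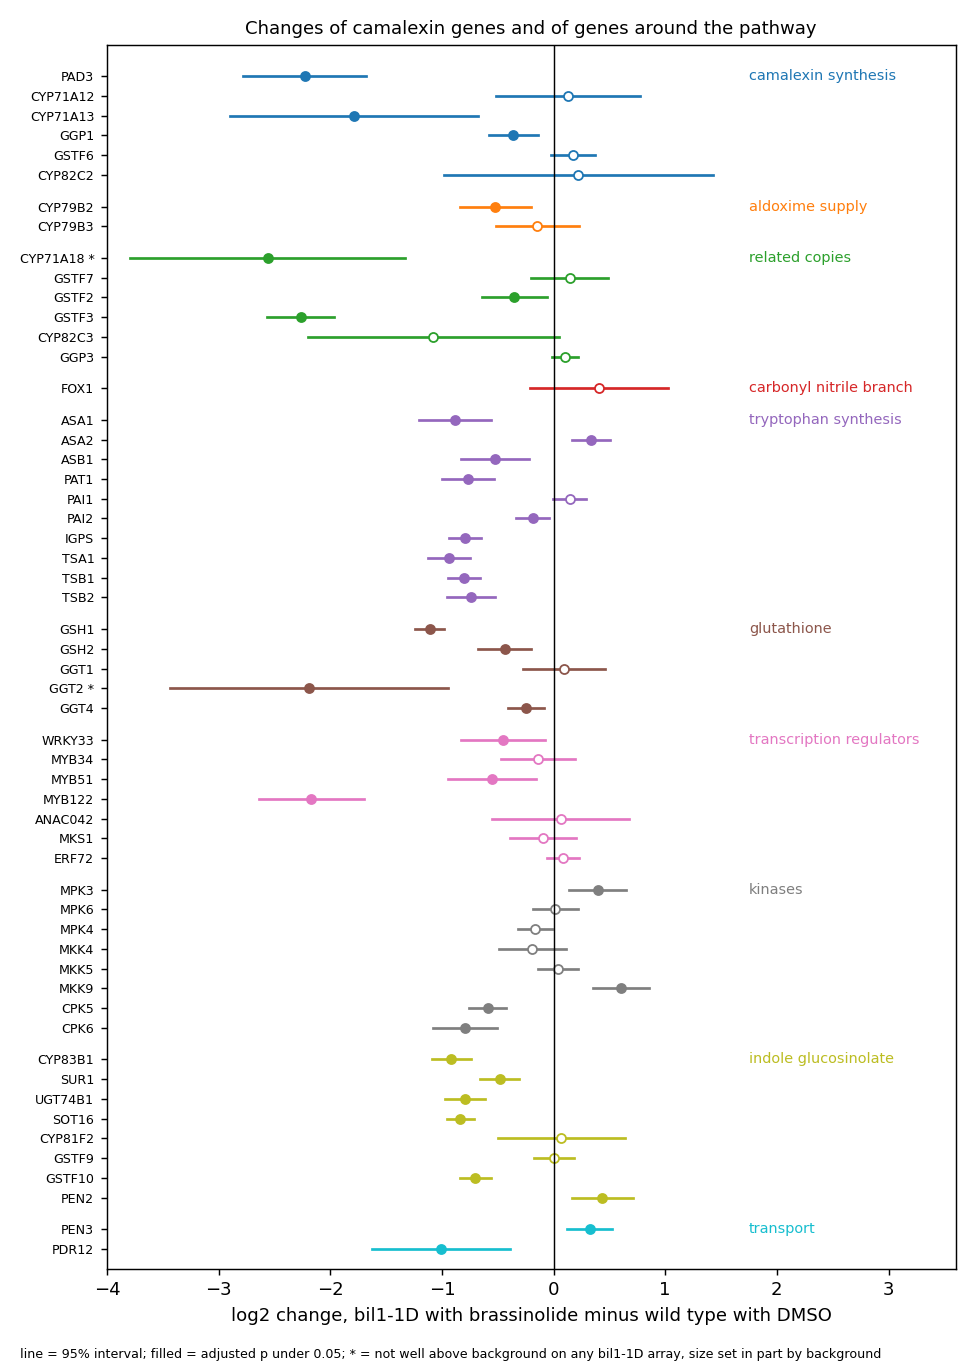
Log2 change of the 6 genes and of genes around the pathway, bil1-1D given brassinolide minus wild type given DMSO (horizontal axis), by gene list, with 95% intervals; filled points passed an adjusted p of 0.05 in limma, and an asterisk marks a gene that no mutant array detected well above background. Most tryptophan synthesis and indole glucosinolate genes lie left of 0, and PAD3, GSTF3 and MYB122 lie near or beyond -2. The points of CYP71A18 and GGT2 lie there too, but these genes have only a bound.

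Close copies of the 6 genes were listed too. Of 8 listed, 6 were measured, of which 3 fell and 3 did not pass, with a median change of -0.71. Among all genes 55.9% passed, 25.7% of all being lower, so 3 of 6 passing is near the share of all genes. CYP82C4 and CYP71B14 were too dim to test. GSTF3, a phi-class copy of GSTF6, was at -1.79, -1.62, -1.36 and -1.62 in the mutant and 0.98, 0.49, 0.68 and 0.51 in wild type, a change of -2.26 ± 0.13 (SE; limma, adjusted p = 8.59e-06). CYP71A18, the third close CYP71A copy, was well above background on 0 mutant arrays and all 4 wild-type arrays. Its mutant level was at least 2.98-fold lower, a bound that was not itself tested. The measured means were -8.47 ± 0.91 in the mutant and -5.91 ± 0.83 in wild type (SD, n = 4 each). Their difference passed the test (limma, adjusted p = 0.00428), but its size was set in part by background. GSTF2 changed by -0.35 ± 0.12 (SE; limma, adjusted p = 0.0422), at -0.46 to -0.26 with 1 array left out. Among these fits the call held only when mutant replicate 3 or wild-type replicate 2 was left out. Over all 21 alternatives the call of GSTF2 was lost in 14 (limma, adjusted p up to 0.211). Its 4 probes gave changes of -1.55 to -0.34, all lower in the mutant, and phi-class copies are alike enough that probes may share signal. GSTF7, next to GSTF6, changed by 0.14 ± 0.15 (adjusted p = 0.438), CYP82C3 by -1.08 ± 0.49 (adjusted p = 0.0924; -1.40 and 0.0396 without wild-type replicate 2) and GGP3 by 0.10 ± 0.05 (adjusted p = 0.116), all in limma. CYP82C3 also passed as lower with spike-in scaling (-1.17, adjusted p = 0.0232) and normexp with an offset (-1.47, adjusted p = 0.0406), and GGP3 as higher with median scaling (0.16, adjusted p = 0.0421). FOX1, of the carbonyl nitrile branch, changed by 0.41 ± 0.27 (SE; limma, adjusted p = 0.227).

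Among 7 regulators of camalexin and indole metabolism, 3 fell and 4 did not pass, with a median change of -0.14. For comparison, 55.9% of all genes passed and 25.7% were lower, and the regulator counts are a description only. MYB122, one of 3 MYB factors of indole glucosinolate synthesis, was at -4.21, -3.74, -3.57 and -3.64 in the mutant, against -1.55, -1.88, -1.93 and -1.13 in wild type. The groups were wide apart, and the change was -2.17 ± 0.21 (SE; limma, adjusted p = 8.84e-05). WRKY33, the factor that binds PAD3 and CYP71A13 regulatory DNA, was at 1.44, 1.78, 1.60 and 1.37 in the mutant and 2.24, 2.03, 1.54 and 2.19 in wild type. Wild-type replicate 3 lay among the mutant arrays. The change of WRKY33 was -0.45 ± 0.16 (SE; limma, adjusted p = 0.0459), at -0.60 to -0.37 with 1 array left out. Among these fits the call held only when mutant replicate 2 or wild-type replicate 3 was left out, with adjusted p up to 0.113 in the others. Over all 21 alternatives the call of WRKY33 was lost in 13 (limma, adjusted p up to 0.396). MYB51 changed by -0.55 ± 0.17 (SE; limma, adjusted p = 0.0256), at -0.69 to -0.42 with 1 array left out, and the call was lost without replicate 1 or 4 of either group. Its call was lost in 8 of all 21 alternatives (limma, adjusted p up to 0.212). MYB34 changed by -0.14 ± 0.14 (adjusted p = 0.433; -0.28 and 0.0327 without wild-type replicate 1), ANAC042 by 0.06 ± 0.27 (adjusted p = 0.851), MKS1 by -0.09 ± 0.13 (adjusted p = 0.572) and ERF72 by 0.08 ± 0.06 (adjusted p = 0.282), all in limma. With the authors' value table ERF72 passed the test as higher (0.27; limma, adjusted p = 0.0457). Under 7 alternatives only 1 regulator fell.

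Of 8 kinases known upstream of the route, 2 rose, 2 fell and 4 did not pass, with a median of -0.07. MKK9, a kinase of the mitogen-activated cascade, rose by 0.61 ± 0.11 (SE; limma, adjusted p = 0.00203), but its other probe gave 0.02 (limma over probes, adjusted p = 0.906). CPK6, a calcium-dependent kinase, fell by 0.79 on the log2 scale (SE 0.12; limma, adjusted p = 0.00103). The other CPK6 probe gave -0.45 ± 0.21 (SE; limma over probes, adjusted p = 0.0991) and did not pass. MPK4, among the 4 not passing, had no value for wild-type replicate 1 on its brightest probe. The other MPK4 probe gave -0.415 and passed (limma over probes, adjusted p = 0.000456). The indole glucosinolate branch draws on the same aldoxime, and its gene list also holds genes of later steps and of breakdown. Of 9 measured, GGP1 included, 6 fell, 1 rose and 2 did not pass, with a median of -0.48. CYP83B1, which takes the aldoxime into that branch, changed by -0.92 ± 0.08 (SE; limma, adjusted p = 4.82e-05). PEN2, a myrosinase that breaks the products down, changed by 0.44 ± 0.12 (SE; limma, adjusted p = 0.0139). Of the 2 transporters that export camalexin, PEN3 changed by 0.32 ± 0.09 (limma, adjusted p = 0.0138) and PDR12 by -1.01 ± 0.27 (limma, adjusted p = 0.0131). PDR12 was at 2.33, 2.54, 1.95 and 1.89 in the mutant and 3.57, 2.62, 2.85 and 3.70 in wild type, without overlap. The calls of PEN2, PEN3 and PDR12 were lost without the arrays marked for evaluation (limma, adjusted p = 0.0536 for PEN2, 0.0506 for PEN3 and 0.0548 for PDR12), and that of PDR12 also with normexp with an offset (adjusted p = 0.0565). Over all these lists together, 49 of 51 genes were measured, 27 fell, 5 rose and 17 did not pass, beside 25.7% lower and 30.2% higher among all genes. The lists were chosen with earlier results of these data known, so these counts are a description only. Both rises in the kinase list and those of PEN2 and PEN3 were lost with spike-in scaling, under which 0 of the 5 rises passed.

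The genes most like PAD3 over the 8 arrays, by Pearson's r of log2 level among 20967 candidates, were AT1G17490 (r = 0.9969), AT3G23550 (r = 0.9959) and AT5G23760 (r = 0.9941). They had changes of -0.34 ± 0.05, -2.39 ± 0.22 and -0.49 ± 0.06 (SE). With 2 groups that differ, any gene with a large group difference tends to correlate, and 535 candidates had r over 0.95 with PAD3. For CYP71A13 they were AT4G03410 (r = 0.9949), the phospholipase D gene PLDGAMMA3 (r = 0.9927) and the phospholipid synthesis gene CCT2 (r = 0.9831), with 23 candidates over 0.95. Their changes were -0.29 ± 0.09, -0.26 ± 0.07 and -0.37 ± 0.09 (SE), so they followed the array order of CYP71A13 with far smaller amplitude. The arrays share scaling and slide, so these r values describe the arrays only.

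**Figure D4:**
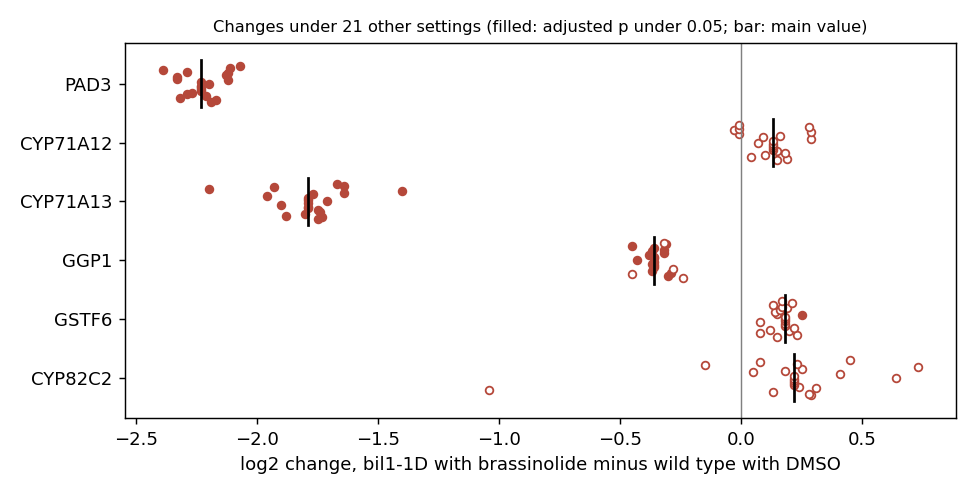
Log2 change of each of the 6 genes under 21 other settings (points, horizontal axis; filled where the adjusted p was under 0.05), bil1-1D given brassinolide minus wild type given DMSO, with the reported value as a black bar. PAD3 and CYP71A13 stayed left of -1 and passed the test in all 21, while the calls of GGP1 varied and CYP71A12 and CYP82C2 straddled 0.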

How the data were processed

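Transcripts were measured on 8 single-colour arrays. The authors' files hold spot intensity on a linear scale, background-subtracted and detrended, as written by Agilent Feature Extraction; the file headers name version 11.5.1.1 and the submitters' processing notes name 9.1.3.1. The authors' deposited value table is taken to hold natural log values (slope 0.957 to 0.997 against the natural log of the intensity), with every column's median at -0.97; its centring and target are unknown, and it served as an alternative only. Spots of a probe were averaged, leaving out 93 outlier spots (0 were saturated). Intensity was divided by each array's 75th percentile, floored at 0.001 of it, and log2 was taken. A probe entered the test if the scanner flagged it well above background throughout either group's 4 arrays, and each gene took the brightest such probe on average. Of 43603 probes, 36163 matched a locus in the RefSeq gene table (TAIR10.1), which also gave symbols not in the gene lists. limma 3.58.1 in R 4.3.3 fitted 22102 genes, with Benjamini-Hochberg adjustment and a threshold of 0.05. Other steps used numpy 2.4.6, scipy 1.17.1, pandas 2.3.3 and, for figures, matplotlib 3.10.9 under Python 3.11.15. The fit was tested on simulated data.

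A gene not well above background in a group has only a bound, computed from the bright group's mean against, per array, the higher of the lowest well-above-background signal and the probe's own. The number of arrays limits the precision. Named genes were the 6 genes, from each context list the largest rise and fall that passed the test, every measured gene of the aldoxime, close-copy, regulator, carbonyl nitrile and transport lists, and the 3 genes most like PAD3 and CYP71A13. The 6 genes and the lists were chosen with earlier results of these data known. Alternatives covered scaling (quantile, median, spike-in), normexp, the value table, filters, probes, fit settings, the replicate number as a block and leaving arrays out. Normexp ran on the median spot signal, as the files used here hold no mean spot signal. No sequences or coordinates are given.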

Additional observations from a re-analysis of the deposited data

Results flagged for a closer look

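In 109 groups of 4 arrays over 55 genes, 3 arrays stood further from the nearest other array of their group than Dixon's 95% limit allows, and chance alone gives about 1 in 20. None was a camalexin synthesis gene. MYB34 in wild-type replicate 1 was at 0.32, with the next value at 0.82. ANAC042 in mutant replicate 1 was at -3.00, with the next at -2.24. MPK6, a mitogen-activated protein kinase, in mutant replicate 4 was at 1.55, with the next at 1.44. Wild-type replicate 1 and mutant replicate 4 are 2 of the arrays marked for evaluation.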

How the results depend on the processing

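PAD3 kept its direction and its call in all 21 alternatives, at -2.39 to -2.07, and so did CYP71A13, at -2.20 to -1.40. GGP1 kept its direction, with the call lost at -0.24 (quantile), -0.45 (spike-in), -0.28 (value table) and -0.32 (without the marked arrays). Leaving out 1 array at a time gave 0.13 to 0.25 for GSTF6, -0.03 to 0.29 for CYP71A12 and -0.15 to 0.73 for CYP82C2; CYP71A12 was at -0.01 without the marked arrays and CYP82C2 at -1.04 with normexp with an offset. ANAC042 ranged from -0.11 to 0.27 leaving out 1 array, and was at -0.03 (spike-in), -0.26 (normexp with an offset) and -0.00 (without the marked arrays). MKS1 ranged from -0.15 to 0.02 leaving out 1 array and was at 0.06 with normexp on negative controls, and ERF72 was at -0.01 with spike-in scaling. The genes called numbered 4207 with spike-in scaling and 7191 with normexp with an offset, beside 12345. The context genes called, with 32 in the reported fit, numbered 19 with spike-in scaling and 21 without the marked arrays. The cause was not tested, beyond that the last uses fewer arrays. With quantile normalization, either normexp form or the authors' value table, no pair of the 6 genes passed the threshold. The same limit holds there: a pair can pass only if more than 8 pairs reach the smallest p together. The count of pairs with 1 array left out is not given.

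The labels do not say whether the replicate numbers pair the samples. Deviations of same-numbered arrays correlated at -0.101, -0.278, 0.173 and 0.042, and not every array correlated best with its own number. These values cannot show whether same-numbered samples were handled together. With the replicate number as a block, PAD3 was at -2.23 (limma, adjusted p = 0.00461), CYP71A13 at -1.79 (adjusted p = 0.0402) and GGP1 at -0.36 (adjusted p = 0.0121), with 11338 genes called. No call of the 6 genes changed, while GSTF2, WRKY33, MYB51 and PEN3 no longer passed. A block for slide could not be fitted, since each slide holds 1 group. CYP71A18 and GGT2, well above background on 0 mutant arrays, have only a bound there.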
